A study of Mus musculus with 15 samples.

Results

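The subject is a group of 10 genes that write, maintain or remove repressive chromatin and DNA marks. They are the Polycomb genes Ezh1, Ezh2, Eed and Suz12, the DNA methylation genes Dnmt1, Uhrf1 and Dnmt3a, and the oxidases Tet1, Tet2 and Tet3. They were listed by name out of 27803 genes, and each had UMIs (unique molecular identifiers, the counted transcripts of Drop-seq) in all 15 tables, with 2914 UMIs over all tables for Ezh1 and 58295 for Ezh2. The 15 animals were C57BL/6 mice in 3 groups of 5. WT mice gave cerebella at postnatal day 7 (P7) and were untreated. Both tumor groups carried Math1-Cre:SmoM2/EYFP loxP/loxP (M-Smo mice), in which Cre under the Math1 (Atoh1) promoter turns on the constitutively active Smoothened mutant SmoM2 in the Atoh1 lineage, and so give medulloblastoma driven by Sonic hedgehog (SHH). One group received 3 daily doses of vehicle and the other 3 daily doses of vismodegib, a Smoothened inhibitor, at 75 mg/kg, and tumors were taken at day 15. WT cells were run on a different microfluidic device from tumor cells and without the human HEK 293 cells (a kidney cell line) added to the tumor runs, so age, genotype and device cannot be told apart between WT and tumors.

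Polycomb repressive complex 2 (PRC2) methylates lysine 27 of histone H3, a mark of silenced developmental genes. Its catalytic subunit is either Ezh2, which prevails in dividing progenitors, or Ezh1, which prevails in resting and differentiated cells, and Eed and Suz12 are its core scaffold. Dnmt1 copies CpG methylation onto the daughter strand at the replication fork, where Uhrf1 recruits it by binding hemimethylated DNA, Dnmt3a methylates DNA de novo and is known for its role in neurons, and the Tet enzymes oxidize 5-methylcytosine to 5-hydroxymethylcytosine, which is abundant in cerebellar neurons.

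Of the 30722 tumor and 7224 WT cells that passed the filters, 33271 belonged to clusters of the cerebellar granule neuron progenitor (CGNP) lineage, 5059 in WT, 17184 in vehicle and 11028 in vismodegib animals, with 553 to 7532 cells per animal and a median of 1038 to 2631.5 UMIs per cell. Each lineage cluster was called Node A-like (mitotic progenitors), Node B-like (progenitors, from a list with the SHH target Gli1 and the progenitor marker Atoh1, though 1 of the 3 clusters in tumors was led by replication genes), Node C-like (newly postmitotic cells with Cntn2) or Node D-like (differentiating granule neurons with Grin2b). Each lineage cell was also called S-like, G2/M-like or non-cycling from S and G2/M gene lists that hold none of the 10 genes, and 6.16% of these cells lay close to the limit between cycling and non-cycling. The 6 S genes left out of the calls for checking summed to 2888 to 3343 CPM (UMIs per 1000000 UMIs) in S-like cells. They summed to 2133 to 2263 CPM in G2/M-like and 333 to 537 CPM in non-cycling cells (ranges of group means). The 6 G2/M genes left out summed to 338 to 370 CPM in S-like, 1280 to 1759 CPM in G2/M-like and 59.6 to 104 CPM in non-cycling cells. On the S genes the 2 cycling classes thus lay closer to each other than to non-cycling cells. The neuron-like marker list, all of whose 8 genes were detected, differed between the groups within the lineage, with a median of 642 CPM in WT, 163 CPM in vehicle and 543 CPM in vismodegib animals, and its part in the results was not tested. No pair of tables shared more than 13 barcodes.

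Levels are given in CPM, scaled by the UMIs summed over the cells of one class in one animal, with mean ± SD over 5 animals. They are relative to all transcripts of the class, and a sum does not tell more cells with the transcript from more transcript per cell. Phases and stages were read from the same cells, so levels across phases and stages are described without a test. Differences between groups of animals were tested with edgeR's quasi-likelihood test on the summed UMIs over all genes, and a gene was called at a Benjamini-Hochberg adjusted p under 0.05.

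Upstream sequence is shown for the catalytic pair Ezh2 and Ezh1, whose levels ran in opposite directions along the cell cycle, and for Suz12 and Uhrf1, which were high in cycling cells and have an E2F word just upstream. E2F factors drive genes of the G1/S transition, and the CCAAT box binds NF-Y, common at cell cycle promoters. The words TTTCCCGC, TTTCGCGC, TTTGCCGC and TTTGGCGC (E2F) and CCAAT were searched on both strands in the 250 bases before each RefSeq start in GRCm38.p6. An E2F word was found in 1.86% and CCAAT in 33.8% of 32851 promoter windows. Of the 10 genes, an E2F word was found for Suz12, for 1 of 2 starts of Uhrf1 and for 1 of 3 starts of Dnmt1. The share of 1.86% counts windows, and genes with more starts had more windows. The Dnmt1 match, at 219 bases before the start, lay beyond the 84 bases next to that start that are free of annotated exons. These matches are letters in a window, and binding was not measured. The lines give RefSeq sequence 5′ to 3′ on the gene's strand, outside annotated exons, with the matches in capitals. Ezh2 covers chr6:47595059-47595183 (minus strand), with CCAAT matches at 90 and 64 bases before the start. It lies upstream of the RefSeq start but inside the longer GENCODE M21 gene given with the values of Ezh2. Ezh1 covers chr11:101226464-101226713 (minus strand) and has no match. Suz12 covers chr11:79992856-79993105 (plus strand), with the E2F word at 219 and CCAAT at 61 bases before the start. Uhrf1, at its second start, covers chr17:56304063-56304312 (plus strand), with the E2F word at 185 and CCAAT at 150 and 107 bases before the start, and also lies inside the GENCODE M21 gene.
Ezh2: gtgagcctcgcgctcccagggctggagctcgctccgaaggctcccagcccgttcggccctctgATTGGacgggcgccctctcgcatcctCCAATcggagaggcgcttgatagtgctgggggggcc
Ezh1: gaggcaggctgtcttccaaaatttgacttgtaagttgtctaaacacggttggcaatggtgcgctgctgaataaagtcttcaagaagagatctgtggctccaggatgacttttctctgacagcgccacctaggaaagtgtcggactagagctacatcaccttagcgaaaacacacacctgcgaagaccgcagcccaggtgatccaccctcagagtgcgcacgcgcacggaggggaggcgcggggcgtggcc
Suz12: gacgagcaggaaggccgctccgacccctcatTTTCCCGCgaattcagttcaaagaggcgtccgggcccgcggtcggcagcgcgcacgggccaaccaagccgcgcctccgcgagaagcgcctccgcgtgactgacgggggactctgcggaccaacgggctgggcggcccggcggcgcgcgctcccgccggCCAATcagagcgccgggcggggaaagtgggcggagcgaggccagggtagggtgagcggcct
Uhrf1: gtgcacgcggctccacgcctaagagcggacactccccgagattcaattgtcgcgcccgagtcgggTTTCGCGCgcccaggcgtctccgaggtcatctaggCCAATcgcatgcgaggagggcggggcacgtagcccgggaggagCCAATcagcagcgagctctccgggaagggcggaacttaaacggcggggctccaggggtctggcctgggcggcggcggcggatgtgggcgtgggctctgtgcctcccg

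Across the cell cycle the 10 genes differed in their pattern. Uhrf1 and Dnmt1 were highest in S-like cells, Ezh2, Suz12 and Eed were higher in both cycling classes than in non-cycling cells, and Ezh1 was on average lower in both. Dnmt3a stood higher in S-like than in G2/M-like cells of every tumor animal.

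**Figure D1:**
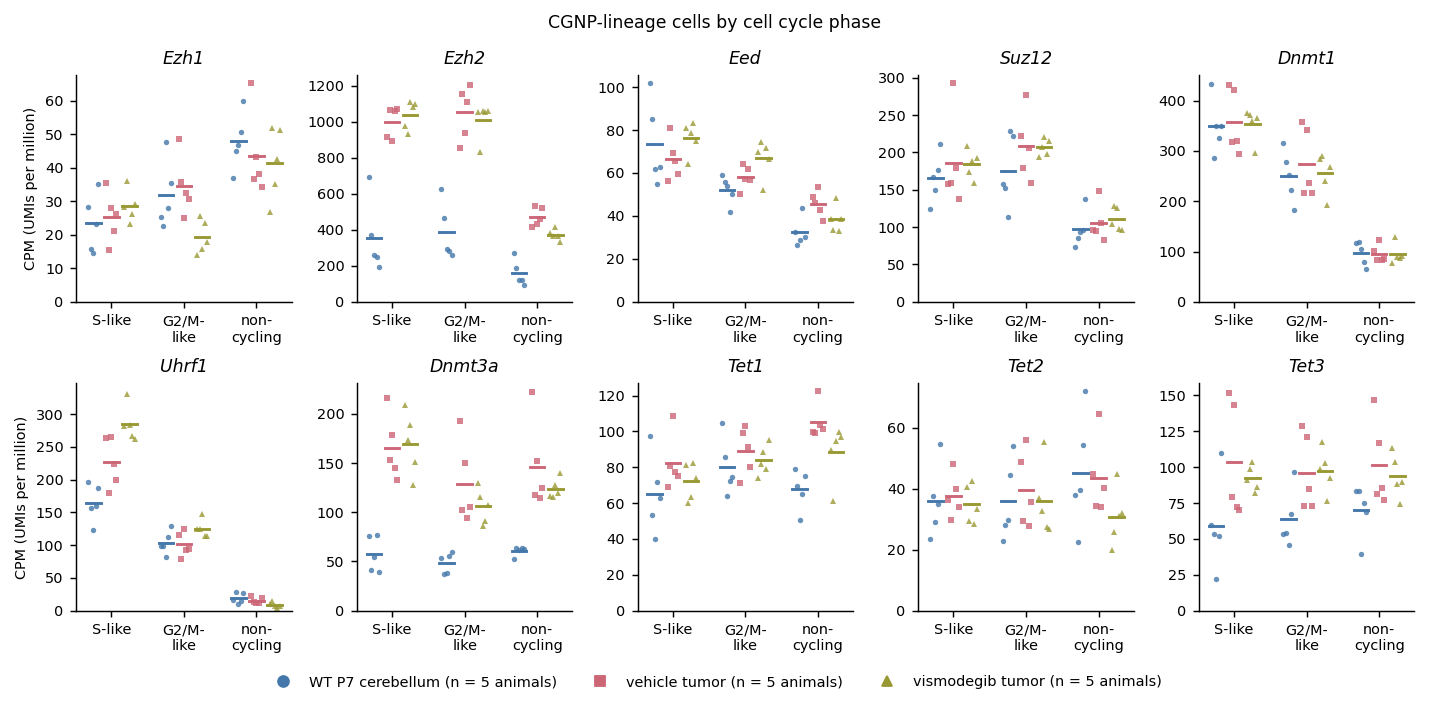
CPM of each of the 10 genes in S-like, G2/M-like and non-cycling CGNP-lineage cells; each point is an animal (5 per group) and each bar a group mean. Uhrf1 and Dnmt1 were highest in S-like and lowest in non-cycling cells in 15 of 15 animals, whereas Ezh1 was highest in non-cycling cells in 13 of 15.

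Of the catalytic subunits, Ezh2 (chr6:47530139-47595341 in GRCm38, minus strand) was lowest in non-cycling cells in 15 of 15 animals. In vehicle tumors it stood at 1000.3 ± 89.6 CPM in S-like, 1053 ± 149.6 CPM in G2/M-like and 473 ± 54.3 CPM in non-cycling cells. In WT the same classes gave 354 ± 202, 386 ± 157 and 159 ± 71.0 CPM. The mean log2 ratio of G2/M-like over non-cycling cells was 1.29 ± 0.08 in WT, 1.15 ± 0.08 in vehicle and 1.44 ± 0.19 in vismodegib animals, and that of S-like over non-cycling cells was 1.10 ± 0.16, 1.08 ± 0.09 and 1.48 ± 0.16. The lowest non-cycling value of any vehicle animal, 413 CPM, lay above the WT mean of either cycling class. Outside the lineage, Ezh2 stood in vehicle tumors at 149 ± 68.4 CPM in vascular fibroblast-like and 381 ± 64.2 CPM in oligodendrocyte-like cells, and the part of free RNA in the non-cycling level was not tested. Ezh1 (chr11:101191115-101226463, minus strand) gave a mean log2 ratio of G2/M-like over non-cycling cells of -0.62 ± 0.38 in WT, -0.33 ± 0.29 in vehicle and -1.08 ± 0.26 in vismodegib animals, and of S-like over non-cycling cells of -1.03 ± 0.49, -0.78 ± 0.31 and -0.49 ± 0.35, so the order of the groups was not the same in the 2 cycling classes. It rested on few UMIs, 132 in non-cycling cells over all WT animals and 429 over all vehicle animals.

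Of the scaffold subunits, Suz12 was lowest in non-cycling cells in 15 of 15 animals, with 105 ± 24.9 CPM there against 208 ± 45.2 CPM in G2/M-like cells of vehicle tumors. Eed was highest in S-like cells in 14 of 15 animals, with 73.3 ± 19.6 CPM there and 32.3 ± 6.66 CPM in non-cycling cells of WT. The 3 PRC2 genes Ezh2, Eed and Suz12 thus shared the direction, and the steps for Ezh2 and Suz12 had no exception among the animals. Same-strand genes overlap Eed (Gm45120), Dnmt1, Tet1 and Tet3 in the GENCODE M21 annotation, so UMIs at those 4 loci are less certain than at the other 6.

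Of the maintenance pair, Uhrf1 (chr17:56303321-56323486, plus strand) showed the widest steps of the 10 genes. In S-like cells its level was 165 ± 28.7 CPM in WT, 226 ± 37.9 CPM in vehicle and 285 ± 27.2 CPM in vismodegib animals. In non-cycling cells it was 19.3 ± 7.95, 15.2 ± 5.18 and 8.38 ± 4.07 CPM, against 5.06 ± 7.66 CPM (4 UMIs) in Purkinje-like neurons and 14 ± 10.6 CPM (14 UMIs) in astrocyte-like cells of WT. These had a median of 2241 to 8300 and of 1326 to 2446 UMIs per cell, where WT non-cycling lineage cells had 863 to 1351. The part of free RNA in these low levels was not tested. The mean log2 ratio of S-like over non-cycling cells was 3.10 ± 0.49 in WT, 3.92 ± 0.50 in vehicle and 5.15 ± 0.59 in vismodegib animals. It depended on how phase was called, since calls from the plain share of UMIs on the phase lists, which place fewer cells in the cycle, gave 1.19 ± 0.26, 1.86 ± 0.45 and 2.23 ± 0.60, with every animal above 0 under both. Dnmt1 (chr9:20907209-20959888, minus strand), its partner at the fork, gave 1.86 ± 0.40, 1.90 ± 0.13 and 1.92 ± 0.28, close to the same step in the 3 groups. In non-cycling cells Dnmt1 was still present at 97.1 ± 23.3 CPM in WT, 95.3 ± 17.7 CPM in vehicle and 94.6 ± 20.2 CPM in vismodegib animals, against 28.1 ± 10.1 CPM in WT Purkinje-like cells.

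Dnmt3a (chr12:3806007-3914443, plus strand), the de novo enzyme, was lowest in G2/M-like cells in 12 of 15 animals and highest in S-like cells in 11 of 15. It stood at 165 ± 32.9, 129 ± 41.8 and 146 ± 44.7 CPM in S-like, G2/M-like and non-cycling cells of vehicle tumors and at 170 ± 31.8, 106 ± 17.8 and 124 ± 10.1 CPM in vismodegib tumors. The mean log2 ratio of S-like over G2/M-like cells was 0.23 ± 0.46 in WT (above 0 in 4 of 5 animals), 0.40 ± 0.20 in vehicle and 0.68 ± 0.27 in vismodegib animals (above 0 in 5 of 5 each). Tet1 was lowest in S-like cells in 10 of 15 animals. For Tet2 and Tet3 no phase held the highest or the lowest value in more than 8 of 15 animals. In vehicle tumors Tet2 stood at 37.6 ± 6.93, 39.5 ± 12.3 and 43.7 ± 12.5 CPM and Tet3 at 104 ± 40.7, 96.1 ± 26.7 and 101 ± 29.9 CPM, and the phase means of each gene lay within 1 SD of each other.

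Along the granule series, Ezh2 and Suz12 were highest in Node A-like cells in 15 of 15 animals, and Ezh2 was lowest in Node D-like cells in 14 of 15. Ezh2 went from 1160.2 ± 195 CPM in Node A-like to 789 ± 43.0, 536 ± 64.4 and 358 ± 33.8 CPM in Node B-like, Node C-like and Node D-like cells of vehicle tumors, and no neighbours in that order shared a value. In WT it went from 416 ± 178 to 349 ± 148, 184 ± 99.5 and 141 ± 56.4 CPM, with neighbours overlapping. The mean log2 ratio of Node A-like over Node D-like cells was 1.55 ± 0.42 in WT, 1.67 ± 0.21 in vehicle and 1.89 ± 0.10 in vismodegib animals. Ezh1 was highest in Node D-like cells in 11 of 15 animals, with 51.0 ± 20.4, 51.5 ± 8.0 and 44.0 ± 11.6 CPM there in WT, vehicle and vismodegib animals.

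**Figure D2:**
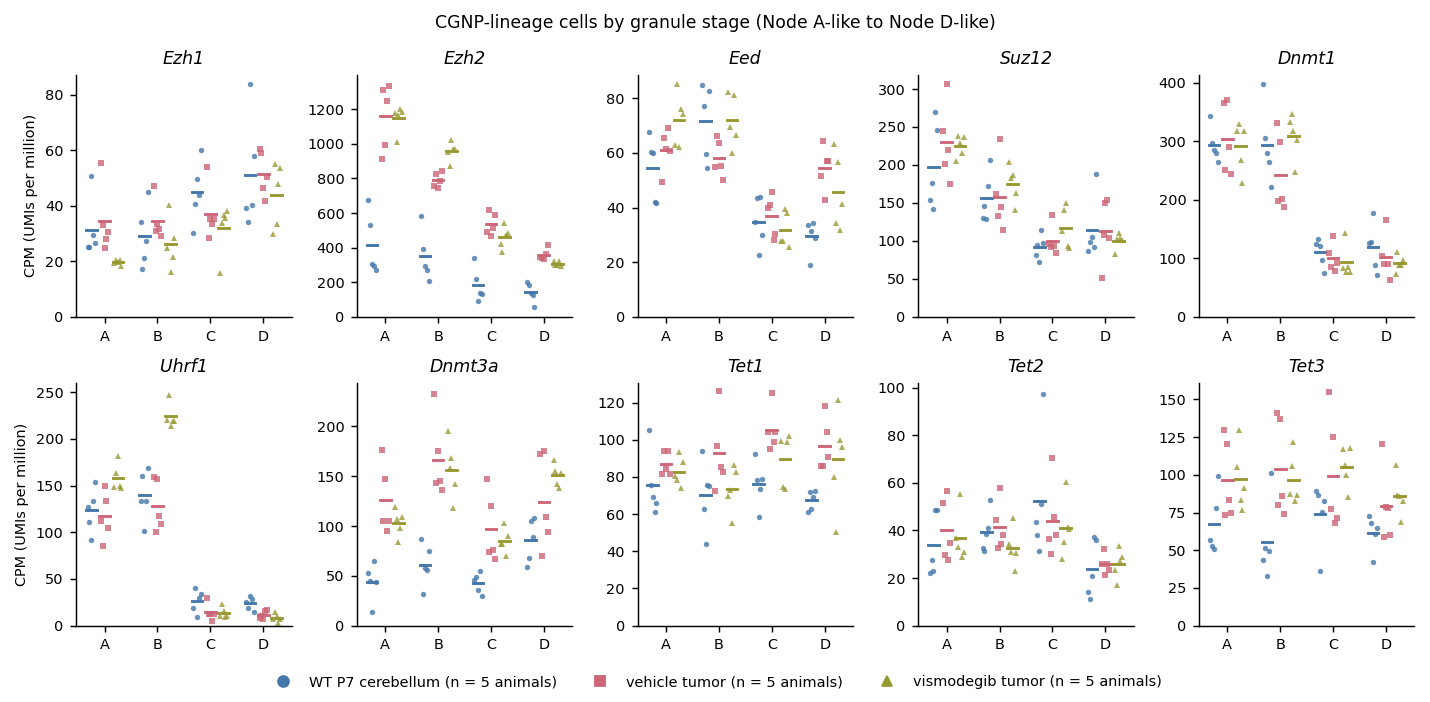
CPM of each gene in Node A-like (A), Node B-like (B), Node C-like (C) and Node D-like (D) cells; each point is an animal (5 per group) and each bar a group mean. Ezh2 stepped down from A to D in all 3 groups, Uhrf1 dropped between B and C, and in Node B-like cells the vismodegib animals, at 214 to 247 CPM of Uhrf1, lay above all vehicle animals.

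Uhrf1 peaked at the Node B-like stage in 13 of 15 animals and was low at the Node C-like stage, with 128 ± 27.8 CPM in Node B-like and 14.4 ± 9.0 CPM in Node C-like cells of vehicle tumors. Dnmt1 took the same step at a smaller size, from 243 ± 67.2 to 101 ± 24.2 CPM. Neither drop showed overlap between the vehicle animals' values for the 2 stages. Dnmt3a was lowest in Node C-like cells in 11 of 15 animals and stood higher again in Node D-like cells, with 85.3 ± 12.1 and 151 ± 11.2 CPM in vismodegib animals, whose ranges (70.0 to 103 and 138 to 166 CPM) did not overlap. Tet2 peaked at the Node C-like stage in 11 of 15 animals and had its lowest value at the Node D-like stage in 13 of 15, with 44.1 ± 15.7 and 25.8 ± 4.02 CPM in vehicle tumors. The smallest Node D-like sums held 95445 UMIs of all genes in WT and 116194 in vehicle animals. The order of Tet2 in such animals thus rests on few UMIs. Eed peaked at the Node B-like stage in 9 and at the Node A-like stage in 6 of 15 animals. Tet1 and Tet3 had no stage that was highest in more than 6 of 15 animals.

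Phase and stage overlap, since 99.8 to 100% of Node A-like but 11.2 to 27.2% of Node C-like and Node D-like cells were cycling (group means). Within Node B-like cells, where both kinds of cell were present, Uhrf1 was higher in cycling than in non-cycling cells by a mean log2 ratio of 3.09 ± 0.34 in vehicle and 2.72 ± 0.26 in vismodegib tumors, and by 1.07 ± 1.08 in WT. Non-cycling Node B-like cells held only 1 to 5 Uhrf1 UMIs per WT animal and 1 to 3 per vismodegib animal, so these 2 ratios depend on the 0.5 UMIs added, and the vehicle ratio (11 to 63 UMIs per animal) is the firmer one. The same ratio for Dnmt1 was 1.67 ± 1.30 in WT, 1.66 ± 0.16 in vehicle and 1.41 ± 0.35 in vismodegib animals, and for Ezh2 0.81 ± 0.18, 0.98 ± 0.12 and 0.86 ± 0.27, above 0 in every animal. In Node C-like cells of vehicle tumors the ratios were 2.28 ± 1.24 for Uhrf1 (26 cycling and 37 non-cycling UMIs over 5 animals, so that it too depends on the 0.5 UMIs added), 0.61 ± 0.45 for Dnmt1 and 0.38 ± 0.23 for Ezh2. In WT and vismodegib animals the Node C-like ratio of Ezh2 was 0.21 ± 0.36 and 0.23 ± 0.36, within its spread and below 0 in 1 of 5 animals of each group, and that of Dnmt1 was 0.89 ± 0.55 and 0.61 ± 0.64, below 0 in 1 of 5 vismodegib animals. For Ezh2 the step between cycling and non-cycling cells thus had the same sign in every animal at the Node B-like stage but not at the Node C-like stage.

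Other cell types were sampled by few cells, so the values are rough. GABAergic progenitor-like cells of WT, a second dividing population, held Ezh2 at 388 ± 228 CPM, Dnmt1 at 287 ± 62.2 CPM and Uhrf1 at 102 ± 45.4 CPM, where Purkinje-like cells held 30.1 ± 21.6, 28.1 ± 10.1 and 5.06 ± 7.66 CPM. Dnmt3a took another order, with 148 ± 60.6 CPM in Purkinje-like cells and 40.2 ± 26.8 CPM in GABAergic progenitor-like cells. In tumors it stood at 307 ± 139 CPM (34 UMIs) in neuron-like cells of vehicle and 355 ± 57.5 CPM (150 UMIs) in those of vismodegib animals. Vascular fibroblast-like cells, which lie outside the Atoh1 lineage, held Dnmt3a at 18.5 ± 21.6 CPM in WT, 137 ± 55.0 CPM in vehicle and 176 ± 55.6 CPM in vismodegib animals, and Ezh2 at 57.0 ± 54.6, 149 ± 68.4 and 207 ± 68.4 CPM. Oligodendrocyte-like cells held Dnmt3a at 73.6 ± 32.0, 150.1 ± 51.1 and 269 ± 128 CPM. The WT values of Dnmt3a were thus the lowest in these other cell types too, from 8 and 40 UMIs. The WT value of Ezh2 was likewise the lowest in vascular fibroblast-like cells, the only cell type outside the lineage where its groups are compared here. These differences were not tested, and no further cell type outside the lineage is set against WT.

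The comparison of vehicle tumors with WT asks how lineage cells of the tumor differ from those of the normal cerebellum. Ezh2 and Dnmt3a were higher in tumors, in every phase, and the other 8 genes did not pass the test over the whole lineage. Ezh2 stood at 534, 346, 239, 223 and 197 CPM in the WT animals (replicates 1 to 5) and at 738, 933, 766, 869 and 994 CPM in the vehicle animals. Dnmt3a stood at 57.9, 47.1, 48.3, 62.8 and 56.0 CPM in WT and at 207, 118, 157, 115 and 116 CPM in vehicle animals. The groups did not overlap for either gene. WT replicate 1 was the highest WT animal for Ezh2, and vehicle replicates 1 and 3 were the highest for Dnmt3a. The log2 fold change was 1.42 ± 0.22 (SE, adjusted p = 0.000135) for Ezh2 and 1.30 ± 0.18 (adjusted p = 3.75e-05) for Dnmt3a by edgeR. In all, 2 of 10 genes were called, where 44.9% of 12584 genes tested were called, 22.0% higher and 22.8% lower in vehicle tumors. The share of the 10 genes that was called is thus below that of all genes.

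**Figure D3:**
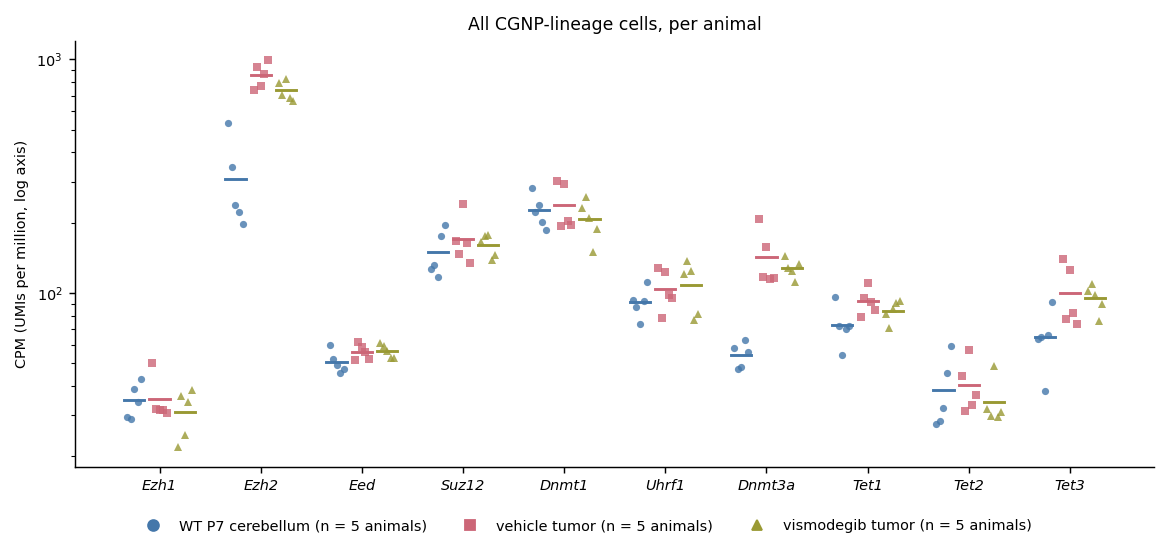
CPM (log axis) of each gene summed over all CGNP-lineage cells of an animal, for WT, vehicle and vismodegib animals (5 points each, bars are group means). For Ezh2 and Dnmt3a all 5 WT animals lay below all 10 tumors, and no gene separated vehicle from vismodegib.

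The same 2 genes were higher in vehicle tumors within each phase. Ezh2 gave a log2 fold change of 1.32 ± 0.24 in S-like, 1.34 ± 0.21 in G2/M-like and 1.40 ± 0.21 in non-cycling cells. Dnmt3a gave 1.27 ± 0.21, 1.24 ± 0.21 and 1.11 ± 0.20. Both were called in S-like (2 of 10 genes, against 30.7% of all genes), G2/M-like (2 of 10, against 37.5%) and non-cycling cells (3 of 10, against 35.5%). The third call in non-cycling cells was Tet1, at 79.1, 69.4, 50.4, 65.3 and 75 CPM in WT and 99.5, 99.1, 123, 103 and 101 CPM in vehicle animals. The Tet1 groups did not overlap, the log2 fold change was 0.46 ± 0.17 (adjusted p = 0.0364), and the call was lost without WT replicates 2, 3 or 4 or vehicle replicates 3 or 4 (adjusted p up to 0.0703). It was also lost with the limit of 4 SD (0.0535), with phases from thinned cells (0.0592), with the replicate block (0.0674) and with phase from the share of UMIs (log2 fold change 0.32, 0.142). Tet3 had a log2 fold change of 0.54 ± 0.22 over the lineage (adjusted p = 0.0554), from 63.5, 64.5, 37.9, 66.2 and 91.5 CPM in WT to 140.3, 77.0, 125, 81.8 and 73.5 CPM in vehicle animals, which overlap, vehicle replicates 1 and 3 being the highest. It passed the test without WT replicate 5 (adjusted p = 0.0237), vehicle replicate 2 or vehicle replicate 5, with DESeq2 (adjusted p = 0.0499), with library-size scaling (0.61, 0.0382) and without the filter on low counts (0.72, 0.00239), and the last 2 settings also called it in S-like and G2/M-like cells.

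Within single stages, which was tested after the data were seen, Ezh2 was higher in vehicle tumors in all 4, with log2 fold changes of 1.36 ± 0.22, 1.01 ± 0.20, 1.34 ± 0.23 and 1.17 ± 0.21 from Node A-like to Node D-like. WT and tumor cells were clustered separately, so a shared stage name need not mean matched cells. Cycling cells were 89.3% of Node B-like cells in WT and 66.0% in vehicle animals (group means). Dnmt3a was higher in Node A-like (1.26 ± 0.24), Node B-like (1.25 ± 0.22) and Node C-like cells (0.90 ± 0.26), while in Node D-like cells its difference was 0.47 ± 0.28 (95% interval -0.10 to 1.03, adjusted p = 0.213). In Node D-like cells WT stood at 58.6, 68.1, 105, 89.3 and 108 CPM of Dnmt3a and vehicle animals at 172, 69.7, 175, 109 and 93.9 CPM, and the groups overlapped. Whether the Dnmt3a difference changes along the series was not tested. Tet3 was higher in Node B-like cells (0.78 ± 0.26, adjusted p = 0.0245), a call lost without any of 5 animals (WT replicates 1, 3 and 4, vehicle replicates 1 and 3), with adjusted p up to 0.0664. Dnmt1 and Eed were lower in Node B-like cells at an unadjusted p under 0.05 and were not called. Uhrf1 in Node C-like cells stood at 26.4 ± 12.5 CPM in WT (60 UMIs) and 14.4 ± 9.0 CPM in vehicle animals (63 UMIs), and it passed the filter on low counts here but not between the tumor groups, so its call (-1.11 ± 0.39, adjusted p = 0.0366, lost without any 1 of 7 animals) is given without weight. From the Node A-like to the Node D-like stage, 2, 3 and 3 of 10 and 1 of 8 tested genes were called (Uhrf1 in Node C-like cells included), beside 34.8%, 36.3%, 31.2% and 26.5% of all genes. Scaling by library size alone moved the median of all genes in this comparison to 0.13 over the lineage and to 0.20 in S-like cells, and left Ezh2 and Dnmt3a called and higher in the lineage and in all 3 phases.

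The comparison of vismodegib with vehicle asks what 3 doses of Smoothened inhibition do to these genes in tumor cells. Over the whole lineage 0 of 10 genes were called by edgeR, 0 had an unadjusted p under 0.05 and 0 were called by DESeq2, while 13.1% of 12428 genes were called, 8.42% higher and 4.67% lower. Ezh2 stood at 796, 708, 828, 687 and 664 CPM in vismodegib animals, overlapping the vehicle animals, with a log2 fold change of -0.22 (95% interval -0.51 to 0.06). Dnmt3a stood at 143, 128, 124, 112 and 133 CPM, with -0.14 (-0.48 to 0.20). Dnmt1 stood at 232, 258, 209, 150.5 and 188 CPM against 301, 193, 293, 204 and 196 CPM in vehicle animals, with -0.19 (-0.55 to 0.16). Uhrf1 stood at 120.2, 137, 124, 76.5 and 81.3 CPM against 127, 78.3, 123, 98.1 and 94.9 CPM, with 0.04 (-0.35 to 0.43). For the other 6 genes the log2 fold changes lay between -0.24 (Tet2, -0.67 to 0.19) and 0.01 (Eed, -0.25 to 0.27). No interval reached a change of 1 on the log2 scale, and over the 10 genes the bounds ran from -0.67 to 0.43.

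The lineage sum mixes phases whose shares differed. Cycling cells made up 60.2% ± 3.65 of lineage cells in vehicle and 46.3% ± 12.6 in vismodegib animals (SD, n = 5 each), a difference of -13.9 points (2-sided exact permutation test, p = 0.0397, where 0.00794 is the smallest p that 252 splits allow). Leaving out 1 animal moved the difference to between -10.5 and -17.6 points and the exact p above 0.05 in 7 of 10 cases (vehicle replicates 1, 3 and 5 and vismodegib replicates 1, 3, 4 and 5, p up to 0.0794). Vismodegib replicates 4 and 5 had the lowest shares. With phase from the share of UMIs, cycling cells were 36.3% ± 2.79 in vehicle and 27.8% ± 7.24 in vismodegib animals. That difference was -8.52 points (exact permutation p = 0.0476), so the level of the share depended on the phase call. Earlier work on these data proposed, from the data and not from the labels, a first set of tumors with vehicle replicates 1 and 3 and vismodegib replicates 1, 2 and 3 and a second with the others. Within them the difference was -6.08 points in the first (exact p = 0.4) and -26.5 points in the second (exact p = 0.2), sizes at which p cannot pass 0.05. Weighting each animal's phases as in vehicle tumors, a value with no test, moved the log2 difference of Uhrf1 from 0.03 to 0.29 and that of Ezh2 from -0.22 to -0.07.

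Within phases, 0 of 10 genes were called by edgeR in S-like (1 at an unadjusted p under 0.05, 0 by DESeq2, 1.86% of all genes), G2/M-like (1 unadjusted, 1 by DESeq2, 2.90% of all genes) and non-cycling cells (2 unadjusted, 2 by DESeq2, 24.6% of all genes). In G2/M-like cells the nearest to a call was Ezh1, at 48.7, 35.8, 25.1, 32.5 and 30.6 CPM in vehicle and 13.9, 25.7, 15.8, 23.4 and 17.9 CPM in vismodegib animals. The Ezh1 groups overlapped by vismodegib replicate 2 alone, and the log2 fold change was -0.80 ± 0.22 (adjusted p = 0.0716, DESeq2 0.0292). In non-cycling cells Uhrf1 stood at 22.0, 12.5, 11, 11 and 19.5 CPM in vehicle and 9.35, 14.8, 7.28, 4.03 and 6.44 CPM in vismodegib animals, from 170 and 75 UMIs. Its log2 fold change was -0.96 ± 0.35 (adjusted p = 0.0566, DESeq2 0.0442). Ezh2 in non-cycling cells stood at 413, 535, 430.2, 463 and 523 CPM in vehicle and 381, 366, 417, 365 and 331 CPM in vismodegib animals, overlapping by 1 animal, with -0.32 ± 0.13 (adjusted p = 0.091, DESeq2 0.0345). These 3 differences lay beside the threshold, so the choice of tool or covariate decided whether they were called. Ezh1 also passed without vehicle replicate 3 (adjusted p = 0.0377), Ezh2 without vehicle replicate 1 (0.0413) and Uhrf1 without vehicle replicate 3 (0.0396) or vismodegib replicate 2 (0.0150).

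Within stages the one call was Uhrf1 in Node B-like cells. It stood at 159.6, 99.7, 156, 118 and 108 CPM in vehicle and at 220.4, 247, 214, 219 and 219 CPM in vismodegib animals, with WT at 134, 160.1, 102, 134 and 169 CPM. Every vismodegib animal lay above every vehicle and WT animal. The log2 fold change was 0.83 ± 0.15 (95% interval 0.52 to 1.14, adjusted p = 0.00584), and it stayed called under 10 of 10 alternatives (0.78 to 1.03) and without any single animal (0.75 to 0.91). In Node B-like cells 1 of 10 genes was called (4 unadjusted, 1 by DESeq2) against 3.08% of all genes. The 4 genes at an unadjusted p under 0.05 by edgeR were Dnmt1, Eed, Ezh2 and Uhrf1. The counts by edgeR elsewhere were 0 of 10 in Node A-like cells (2 unadjusted, 0 by DESeq2, 2.12% of all genes), 0 of 9 tested in Node C-like cells (0 and 0, 0.0851%) and 0 of 8 tested in Node D-like cells (0 and 0, 0.0480%). Uhrf1 itself had too few UMIs to be tested in Node C-like and Node D-like cells. In Node A-like cells Uhrf1 stood at 112, 85.2, 149, 133 and 105 CPM in vehicle and 149, 164, 181, 149.9 and 147 CPM in vismodegib animals (0.43 ± 0.16, adjusted p = 0.261), and Ezh1 stood at 55.3, 33.1, 24.9, 28.2 and 30.6 CPM against 19.3, 20.6, 19.8, 20.3 and 18.3 CPM, groups that did not overlap (-0.77 ± 0.22, adjusted p = 0.106). With the sets of tumors as covariate edgeR called this Ezh1 difference (-0.78, adjusted p = 0.0411). The clusters of Node A-like cells also shifted, the one led by Rrm2 and Myod1 holding 29.8% of them in vehicle and 52.7% in vismodegib animals and the one led by Hist1h2ak and Esco2 26.0% and 11.9%, and the part of this in both differences was not tested.

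The make-up of Node B-like cells differed with treatment. Cycling cells were 62.5 to 70.0% of them in vehicle and 88.7 to 90.8% in vismodegib animals, with 86.9 to 92.4% in WT. In tumors Node B-like cells came from 3 clusters, of which the one led by Hes1 and Gm17322, with Atoh1 among its leading genes, held 40.0% of vehicle and 21.4% of vismodegib Node B-like cells, and the one led by the replication genes Tcf19, Ccne2 and Cdc6 held 29.5% and 41.5%. Among cycling Node B-like cells alone, a comparison added after the data were seen, Uhrf1 stood at 206, 145, 220.0, 165 and 150.0 CPM in vehicle and 234, 266, 229.9, 236 and 235 CPM in vismodegib animals. These groups still did not overlap, but the log2 fold change was 0.45 ± 0.14 (95% interval 0.15 to 0.75) with an adjusted p of 0.157 by edgeR and 0.0402 by DESeq2. Non-cycling Node B-like cells held 11 to 63 Uhrf1 UMIs per vehicle animal and 1 to 3 per vismodegib animal, too few to test. None of the 10 genes was called by edgeR in cycling Node B-like cells (0 of 10, 1 unadjusted, 1 by DESeq2, 1.79% of all genes), nor in the non-cycling cells of Node B-like (0 of 9, 0 unadjusted, 0 by DESeq2, 1.25%), Node C-like (0 of 9, 0 and 0, 0.103%) or Node D-like (0 of 8, 0 and 0, 0.0656%).

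**Figure D4:**
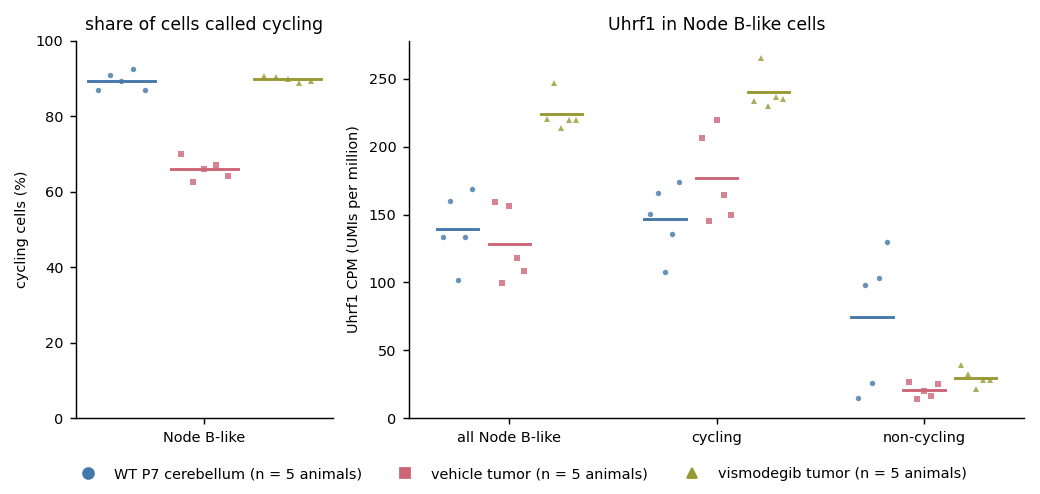
Percentage of Node B-like cells called cycling (left) and Uhrf1 in CPM over all, cycling and non-cycling Node B-like cells (right); each point is an animal (5 per group) and each bar a group mean. The 5 vismodegib animals lay above the 5 vehicle animals in the cycling share, over all cells (214 to 247 CPM) and over cycling cells, while the non-cycling points rest on 1 to 5 UMIs in WT and 1 to 3 in vismodegib animals.

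Whether treatment acted differently in cycling and non-cycling cells was tested as an interaction with the animal as block, where 4 of 10 genes were called against 30.5% of all genes. The difference, cycling minus non-cycling, was 1.5 ± 0.26 on the log2 scale for Uhrf1 (adjusted p = 3.19e-05), 0.28 ± 0.08 for Ezh2 (adjusted p = 0.00737), 0.42 ± 0.15 for Eed (adjusted p = 0.0347) and -0.56 ± 0.17 for Ezh1 (adjusted p = 0.0102). In cycling cells Uhrf1 stood at 145 ± 28.9 CPM in vehicle and 181 ± 13.9 CPM in vismodegib animals, while in non-cycling cells it stood at 15.2 ± 5.18 and 8.38 ± 4.07 CPM. For Ezh1 the cycling values were 31.3 ± 7.0 and 22.7 ± 4.27 CPM and the non-cycling values 43.5 ± 12.6 and 41.5 ± 10.8 CPM. The lower cycling value of vismodegib animals was seen in G2/M-like cells (34.5 ± 8.81 and 19.3 ± 5.0 CPM) and not in S-like cells (25.3 ± 7.49 and 28.5 ± 4.68 CPM). This contrast depended on the phase call. By the share of UMIs the S-like log2 fold change of Ezh1 was -0.52 (edgeR adjusted p = 0.399). With phase called from the share of UMIs the Uhrf1 difference was 0.51 (adjusted p = 0.0338). The call for Eed was lost with DESeq2 (adjusted p = 0.0856), without the filter, with a limit of 4 SD and without vehicle replicates 1 or 3 or vismodegib replicates 2 or 4, and that for Ezh1 with phases from cells thinned to 500 UMIs (-0.33, adjusted p = 0.146) and without vehicle replicates 2 or 5 or vismodegib replicate 5. The other 6 genes lay between -0.11 (Dnmt1) and 0.18 (Tet2).

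The stages of the non-cycling cells also differed, with Node B-like cells making up 46.9% ± 9.76 of them in vehicle and 5.32% ± 2.71 in vismodegib animals, and Node D-like cells 12.9% ± 8.09 and 54.1% ± 16.9. Within a single stage, tested after the data were seen, the interaction was called for 0 of 10 genes by edgeR in Node B-like cells (Eed alone at an unadjusted p under 0.05, 0.270% of all genes) and in Node C-like cells (Tet1 alone unadjusted, 0.0640%), with 0 by DESeq2 in both, where in Node B-like cells DESeq2 gave an adjusted p for 1 gene. For Ezh2 it was 0.02 (-0.24 to 0.28) in Node B-like and -0.13 (-0.42 to 0.17) in Node C-like cells. For Uhrf1 nothing is read from these fits, since its non-cycling cells held too few UMIs.

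**Figure D5:**
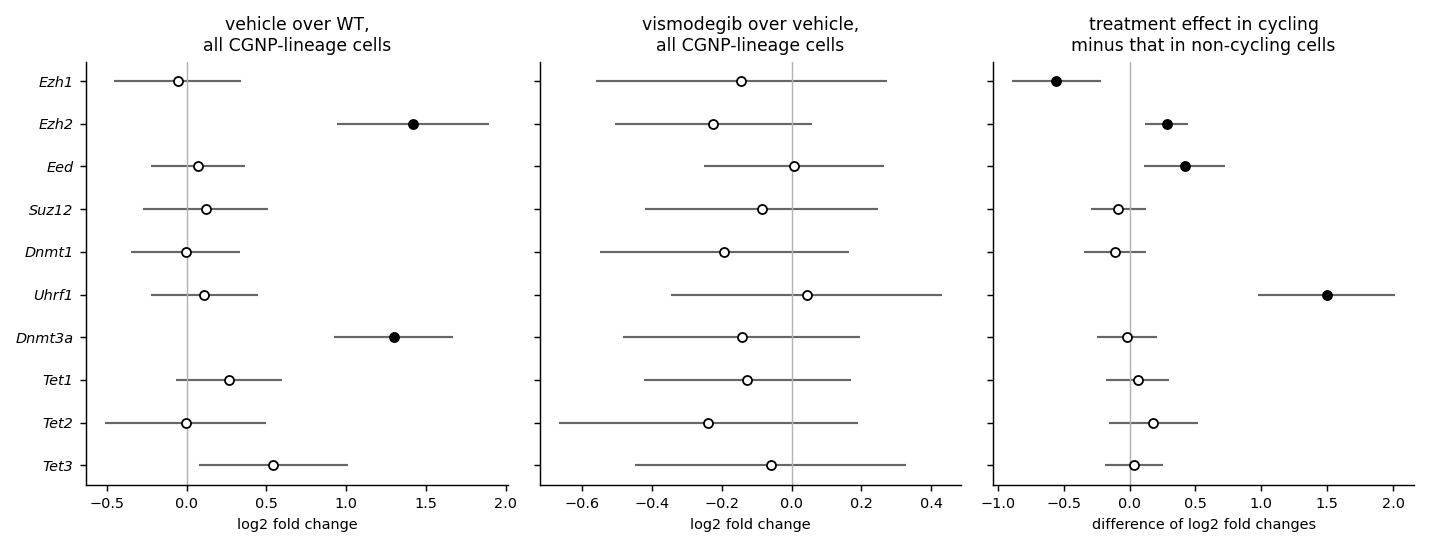
Log2 fold changes with 95% intervals from edgeR over all CGNP-lineage cells for each of the 10 genes, for vehicle over WT (left) and vismodegib over vehicle (middle), and the treatment effect in cycling minus that in non-cycling cells (right); filled points were called at an adjusted p under 0.05. Ezh2 (1.42) and Dnmt3a (1.30) were called on the left, no gene in the middle, and Ezh1, Ezh2, Eed and Uhrf1 on the right.

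Partner genes of the same pathways came from 7 lists with 56 genes, of which 54 were tested over the lineage. Values are given by a fixed rule of size for genes without overlap between groups, and the others are named because they were called. Between vehicle and WT, 13 were higher and 8 lower in vehicle tumors, where 22.0% of all genes were higher and 22.8% lower, with a median log2 fold change of 0.18 beside 0.11 for the 10 genes and 0.06 for all genes. Of the DNA methylation partners, Uhrf2 (the Uhrf1 paralog), Hells (a chromatin remodeler needed for CpG methylation) and Usp7 (which stabilizes Uhrf1) were higher and Dmap1 lower, out of 5 tested. Uhrf2 stood at 39.9 ± 7.44 CPM in WT and 104 ± 31.3 CPM in vehicle animals (1.33 ± 0.20, adjusted p = 0.000112). Of the DNA demethylation partners, Tdg, the glycosylase that excises oxidized methylcytosine made by the Tet enzymes, gave 145 ± 39.2 CPM in WT and 31.5 ± 8.14 CPM in vehicle animals (-2.29 ± 0.22, adjusted p = 2.15e-06), without overlap. Idh1 was lower, and Gadd45a and Ogt (a partner of the Tet enzymes) were higher, out of 8.

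Of the PRC1 list, whose complex ubiquitinates histone H2A, 3 of 21 were higher (Pcgf5, Cbx6, Phc2) and 5 lower (Pcgf1, Pcgf2, Scmh1, Rybp, Yaf2), beside 44.9% of all genes called in either direction. Among the ring finger subunits that set the variant of the complex, Pcgf5 was higher (1.33 ± 0.29) and Pcgf1 lower (-1.93 ± 0.32, from 11.6 ± 2.22 to 3.12 ± 1.12 CPM). Cbx6, which reads methylated lysine 27, was higher by 1.35 ± 0.26 and the polyhomeotic subunit Phc2 by 1.47 ± 0.27. Of the PRC2 accessory subunits Aebp2 and Mtf2 were higher out of 6, of 4 H2A deubiquitinase genes Asxl1 was higher and of 8 methyl-CpG readers Mbd3 and Zbtb4 were higher. The 2 H3K27 demethylases had a median log2 fold change of -0.04. Between vismodegib and vehicle 54 partners were tested, where 8.42% of all genes were higher and 4.67% lower. Their median log2 fold change was 0.12 beside -0.13 for the 10 genes and 0.00 for all genes. The partners that were higher included Phf1, Zbtb4 and Zbtb38, and Pcgf5 and Idh2 were lower. Of these the methyl-CpG reader Zbtb38 stood at 34.6 ± 5.34 CPM in vehicle and 51.9 ± 8.82 CPM in vismodegib animals (0.60 ± 0.17, adjusted p = 0.0348), with a highest vehicle value of 39.6 CPM just under the lowest vismodegib value.

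The genes whose levels ran most like those of the 10 over the 60 sums of an animal and a stage were taken from 5557 genes, with Pearson's r of log2 CPM as a description. The sums share stages, libraries and depth. Uhrf1 ran with Rrm2 (0.949), Mcm6 (0.949) and Anp32b (0.944), of which Rrm2 and Mcm6 act in DNA replication. Dnmt1 ran with Rrm1 (0.922) and Ezh2 with Cenpv (0.911). Suz12 was nearest to Hnrnpd (0.835), Dnmt3a to D430041D05Rik (0.846), Tet3 to Phc2 (0.831) and Eed to Vegfb (0.765). The lowest nearest values were those of Ezh1 with Camk2n1 (0.699), Tet1 with Cul5 (0.641) and Tet2 with Dennd2a (0.632). Among the 10 genes themselves, Dnmt1 and Uhrf1 gave 0.901, and Ezh1 and Ezh2 gave -0.57.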

How the data were processed

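Drop-seq captures single cells with barcoded beads in droplets and counts transcripts by UMI. The deposited values are counts, whole-number UMIs per gene and cell barcode, 1 table per animal, not normalized. Per the labels the authors used mm10 and hg19, and their processing notes name bcl2fastq 2.18, STAR and Seurat 2.3.0. The annotation release was not given in the sources used here. All 10 genes and the partner lists were chosen with earlier results of these data known.

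Barcodes needed at least 500 UMIs and 500 genes and lay no more than 5 SD above the median for UMIs, genes and mitochondrial share. This upper limit was the only step against doublets. Tables held 904 to 9885 barcodes and 2310474 to 17708677 UMIs. WT and tumor cells were clustered separately (Louvain resolution 0.8) into 14 and 16 clusters without the 10 genes and their partners, and clusters were named from fixed marker lists. Names were rebuilt and may differ from those of the study. After the clusters were seen, the erythroid list was barred from naming clusters. Phases came from scores over 40 S and 54 G2/M genes (scanpy 1.11.5). A cell was cycling where either score was above 0.

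UMIs were summed per animal and class and tested with edgeR 4.0.16 (TMM, filterByExpr, quasi-likelihood, R 4.3.3) with 5 animals per group and Benjamini-Hochberg adjustment over all tested genes. Log2 ratios between phases or stages add 0.5 UMIs. Tumor mice were littermates assigned at random per the study's methods, without saying which animals shared a litter. The p-values set group differences against the spread between these animals and treat the animals as independent, which could not be checked. Intervals are from the fits. The cycling share was tested by exact permutation (SciPy 1.17.1). Alternatives were DESeq2 1.42.0, other scaling, no filter, 4 SD, resolution 1.2, other phase calls, covariates and leaving out each animal. The tests of vismodegib against vehicle by stage were planned. Tests of vehicle against WT within stages, tests by phase within a stage, library-size scaling and the first naming rule were added after the data were seen. All 10 genes are reported. Partners are given with values if they are among the 6 largest called changes without overlap, and nearest genes as the 3 highest Pearson r. The fits were tested on simulated data. One result on a partner gene is not reported here.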

Additional observations from a re-analysis of the deposited data

Results flagged for a closer look

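Of 123 groups of 5 animals examined, 10 held an animal far from the other 4, where chance gives about 1 in 20. Ezh1 over the lineage was 50.1 CPM in vehicle replicate 1, where the other vehicle animals had 30.7 to 31.9 CPM, and in non-cycling cells it was 65.2 CPM in the same animal against 34.4 to 43.3 CPM. Tet2 over the lineage was 48.6 CPM in vismodegib replicate 3 against 29.6 to 31.8 CPM. Suz12 in S-like cells was 293 CPM in vehicle replicate 3 against 138 to 179 CPM, and Tet1 in non-cycling cells of that animal was 123 CPM against 99.1 to 103 CPM. Vismodegib replicate 2 stood low for Ezh2 in G2/M-like cells (829 CPM, others 1054 to 1059.9 CPM), high for Dnmt1 in non-cycling cells (129.6 CPM, others 77.5 to 90.9 CPM) and low for Tet1 in non-cycling cells (61.1 CPM, others 89.5 to 99.7 CPM). Dnmt1 in S-like cells was 296 CPM in vismodegib replicate 4 against 360.2 to 375 CPM. Dnmt3a in non-cycling cells was 52.7 CPM in WT replicate 1 against 61.2 to 64.1 CPM.

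The effect of vismodegib differed between cycling and non-cycling cells by the edgeR interaction test for 4 genes, by 1.5 on the log2 scale for Uhrf1, 0.42 for Eed, 0.28 for Ezh2 and -0.56 for Ezh1 (cycling minus non-cycling). The test called 30.5% of all genes, DESeq2 called 3 of the 10 genes, the calls for Eed and Ezh1 were lost under several settings, and none of the 10 was called within Node B-like or Node C-like cells. The stages of non-cycling cells differed too, with Node B-like cells 46.9% of them in vehicle and 5.32% in vismodegib animals. The part of this shift in the 4 differences was not tested.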

How the results depend on the processing

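Of 3599 values of the 10 genes under an alternative, 3513 kept their direction and side of the threshold, 32 lost a call, 33 gained one, 18 turned and 3 without a test (Ezh2, Eed and Uhrf1 at a fixed phase mix) lay further from the edgeR value than the spread between animals, Eed by less than that spread when set against its own unweighted value. A sign change of less than 1 SE between values called in neither fit was counted as kept, and 299 of 3589 fitted values had the opposite sign to the reported one. The count of genes called by phase for vismodegib, 0, was 3 with DESeq2, 1 at resolution 1.2, 1 with the serial number as covariate, 2 with the sets of tumors as covariate and 0 to 2 without 1 animal. By stage it was 1, and 2 with the sets as covariate. For vehicle against WT over the lineage it was 2, and 4 without the filter. The cycling share differed by -10.5 to -17.6 points without 1 animal (7 of 10 lost the call), by -6.08 points within set 1 and by -26.5 points within set 2. With phase from the share of UMIs it differed by -8.52 points. Same-numbered animals were treated as unpaired in the main fits. The serial numbers of same-numbered vehicle and vismodegib animals were adjacent, and whether these animals were paired is not known. Correlations of the deviations of same-numbered animals were -0.32 to 0.39 between vehicle and vismodegib and -0.35 to 0.12 between WT and vehicle. They cannot settle this. A replicate block gave 1 call by phase, 1 by stage and 2 for vehicle against WT over the lineage. Values that turned were called in neither fit. For vismodegib, Ezh1 in S-like cells became -0.52 and Dnmt1 in non-cycling cells -0.22 with phase from the share of UMIs. Without 1 animal Suz12 in S-like cells ran from -0.10 to 0.22, Dnmt1 in Node D-like cells from -0.29 to 0.14 and in their non-cycling cells from -0.24 to 0.24. For vehicle against WT, Dnmt1 became 0.17 over the lineage, 0.042 in S-like and 0.18 in G2/M-like cells without the filter, 0.013 in S-like cells by library size and 0.053 there by share of UMIs, Tet1 in G2/M-like cells -0.16 by share of UMIs and Uhrf1 in G2/M-like cells 0.032 without the filter. For the interaction, Dnmt1 became 0.016 with thinned cells, 0.10 by share of UMIs and -0.18 to 0.011 without 1 animal, Suz12 0.019 by share of UMIs, Dnmt3a -0.10 to 0.10 without 1 animal, and Ezh2 in Node C-like cells -0.25 to 0.038. The cause of these changes was not tested. Low counts limited Uhrf1 outside cycling cells (75 UMIs in non-cycling vismodegib cells) and Ezh1 (168 UMIs in G2/M-like vismodegib cells).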
